A study of Homo sapiens with 6 samples.

Results

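A set of 10 genes of epithelial identity was followed in K562 cells resistant to methotrexate (MTX) and in the parental K562 cells: the keratins KRT8, KRT18, KRT19 and KRT10, the adhesion molecules EPCAM and CDH1, the claudins CLDN3, CLDN4 and CLDN7, and the transcription factor ELF3. The set was given as a list of names that was not drawn up independently of these data. It holds 10 of the 19775 genes that the array annotation gives as the only gene of at least 1 probe set, and all 18 probe sets that name a member were read. K562 is an established human cell line, derived from chronic myeloid leukaemia and labelled erythroblastic leukemia, and MTX is a folate antagonist used against leukaemias and solid tumours. The resistant cells were K562 made resistant by stepwise exposure to MTX and grown with dialysed serum in a medium that lacks glycine, hypoxanthine and thymidine (3 arrays). The others were the parental cells, sensitive to MTX and grown in Ham's F12 with whole serum (3 arrays), so that resistance and medium cannot be told apart. Whether the resistant line was a single clone was not given in the sources used here, nor whether the replicates were separate cultures, so that the p-values reflect only how far these arrays spread, which may be technical.

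Keratins are the intermediate filaments of epithelial cells. KRT8, a type II keratin, assembles with the type I keratins KRT18 and KRT19 in simple epithelia, whereas KRT10 is the type I keratin of differentiating epidermis. CDH1 (E-cadherin) joins neighbouring cells at adherens junctions, claudins seal tight junctions, EPCAM is a surface glycoprotein of epithelia, and ELF3 is an ETS family transcription factor of epithelial cells. Zinc finger and helix-loop-helix repressors such as SNAI2, ZEB1 and TWIST1 are known to lower CDH1 and related genes, in part through the E-box CAGGTG. Blood cell lines do not form epithelial junctions, and K562 is known to hold some simple keratins.

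Levels are given as multiples of the median signal of each array. The median signals were 10.2 to 12.5 on the resistant arrays and 12.7 to 14.3 on the parental arrays, and the number of arrays limits the precision. Parental 1 stood apart from the other parental arrays: its Spearman correlation across tested probe sets (not independent of each other) was 0.899 with parental 2 and 0.889 with parental 3, whereas parental 2 and 3 correlated at 0.969 with each other. The results of the members are therefore given with and without parental 1. The 7 erythroid markers of K562 on the array (HBZ, HBE1, GATA1, TAL1, KLF1, LMO2 and ALAS2) exceeded the array median on all 6 arrays, and their summed level was 980 to 1174 in resistant cells and 1483 to 1573 in parental cells. Without HBE1 the other 6 summed to 909 to 1100 in resistant cells and 813 to 1012 in parental cells, and these ranges overlapped. HBE1 (embryonic globin) was called lower in resistant cells (log2 difference -3.35, adjusted p = 0.00562), and HBZ and ALAS2 were not called.

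Resistant cells had lower mean log2 levels of each tested member, but no member passed the test, and without parental 1 the difference was smaller in size for 10 of the 11 tested probe sets and above 0 for the other. In bulk samples, fewer cells of a type and less RNA per cell cannot be told apart. Probe sets that averaged under 1 array median were not tested, which left 11 of the 18 and every member but CLDN4. Of these 11, 0 were called higher or lower by limma (a 2-fold difference or more, with an adjusted p under 0.05), where 2.33% of the 26692 tested probe sets were called, 1.14% lower and 1.2% higher. At an unadjusted p under 0.05 there were 4, 2 of KRT10 and 1 each of CDH1 and CLDN7, where 18.7% of all tested probe sets reached that level. The difference was below 0 for 11 of 11, beside 48% of all tested probe sets, with a median of -0.85 on the log2 scale against 0.03 over all. Of the 11, 4 (EPCAM, CDH1, CLDN3 and CLDN7) passed the level filter only through parental 1 and so had to stand high there. The counts below 0 and at an unadjusted p under 0.05 thus do not bear on the members as a whole.

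**Figure D1:**
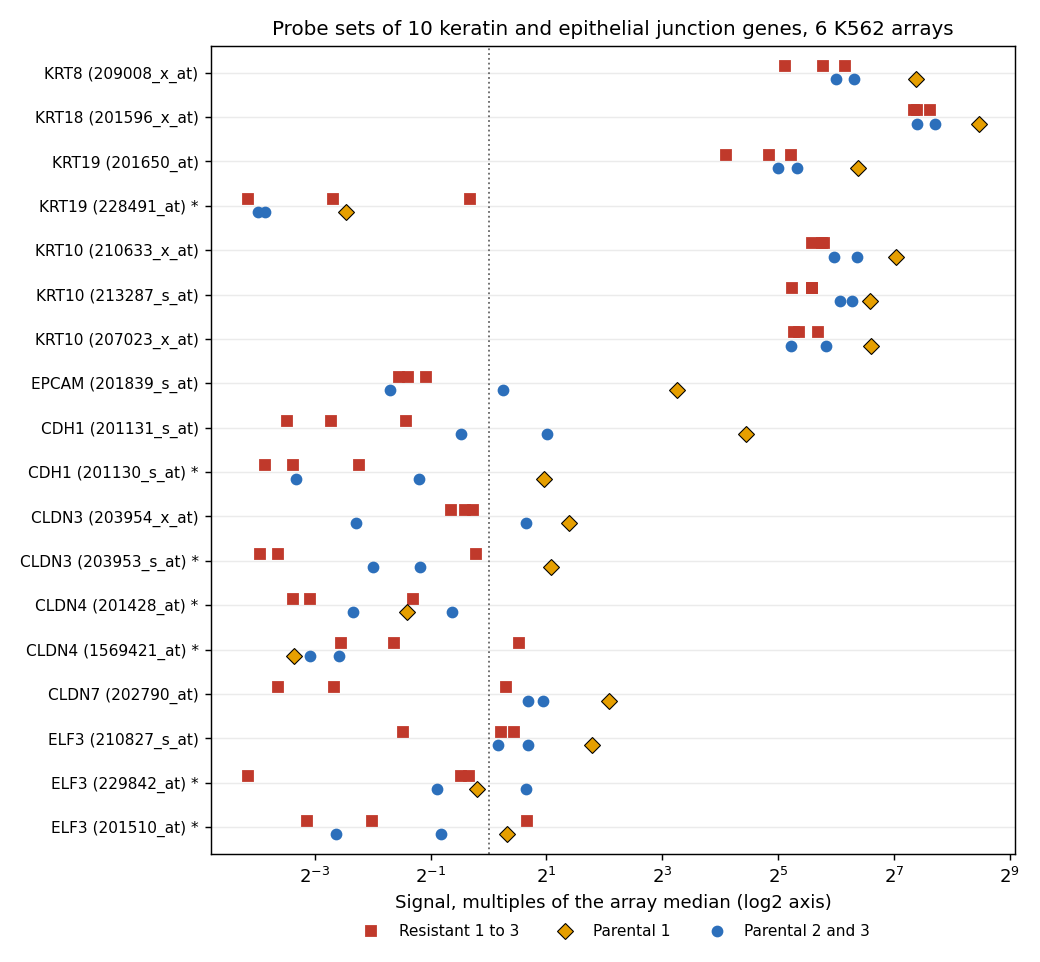
Signal of each of the 18 probe sets in the resistant arrays (squares), parental 1 (diamond) and parental 2 and 3 (circles), as multiples of the array median (log2 axis), with the median as a dotted line and an asterisk for probe sets that were not tested. Parental 1 is the highest of the 6 arrays in all 11 tested probe sets, which is not so for CLDN4.

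By their tested probe sets, the keratins were well above the array median on every array. Probe sets with names ending in _x_at or _s_at, which were all those tested but the ones of KRT19 and CLDN7, can bind several transcripts, and KRT8 and KRT18 have many pseudogenes, so that their levels are uncertain in this respect. KRT8 stood at 71.1, 54.5 and 34.9 array medians in resistant 1 to 3, against 166, 79.2 and 64.0 in parental 1 to 3. Its groups overlapped, since resistant 1 lay above parental 3, and its log2 difference was -0.88 (SE 0.442; limma adjusted p = 0.343). KRT18, the filament partner of KRT8, stood at 196, 163 and 168 in resistant cells, against 352, 210 and 169 in parental cells. Resistant 1 again lay above parental 3, and the log2 difference was -0.41 (SE 0.314; adjusted p = 0.528). In both genes parental 1 was the highest array.

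KRT19, the smallest keratin and a partner of KRT8 in ducts and glands, followed the same order as KRT8. It stood at 37.2, 28.7 and 17.1 array medians in resistant cells, against 83.7, 39.9 and 31.8 in parental cells (log2 difference -0.85, SE 0.456; adjusted p = 0.375). For both genes resistant 3 was the lowest array and parental 1 the highest. The second KRT19 probe set (228491_at) was below the array median on all 6 arrays and was not tested. Without parental 1 the log2 differences were -0.47 for KRT8, -0.11 for KRT18 and -0.44 for KRT19, with adjusted p = 0.491, 0.822 and 0.549.

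KRT10 was read by 3 tested probe sets. In 213287_s_at it stood at 47.7, 38.0 and 48.1 array medians in resistant cells, against 95.6, 77.5 and 67.4 in parental cells. All resistant arrays lay below all parental arrays, and this difference was the least tied to parental 1, with -0.84 (SE 0.235; adjusted p = 0.134) with it and -0.70 (adjusted p = 0.159) without it. In 210633_x_at the values were 54.3, 48.0 and 55.2 in resistant cells, against 131, 62.7 and 82.4 in parental cells (log2 difference -0.74, adjusted p = 0.265). Here too the groups did not overlap. In 207023_x_at, with 51.3, 38.9 and 41.1 in resistant cells and 97.8, 37.4 and 56.6 in parental cells, parental 2 was the lowest array and the difference without parental 1 was -0.08. The probe sets of this gene thus disagreed on whether a difference remained without parental 1.

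CDH1 lay lower in resistant cells without overlap in its tested probe set, but below the array median on every resistant array. Its probe set 201131_s_at stood at 0.0894, 0.152 and 0.373 array medians in resistant cells, against 21.8, 2.01 and 0.717 in parental cells. The groups did not overlap, but the parental arrays spanned a wide range, and parental 3 was below the array median too. The log2 difference was -4.20 (SE 1.24; adjusted p = 0.149), and -2.80 (SE 0.722; adjusted p = 0.104) without parental 1. Its size depends on how low values are treated, with -3.05 at a pseudocount of 0.25 and -2.03 at a pseudocount of 1 (adjusted p = 0.162 and 0.177). The second probe set (201130_s_at) was not tested. It had 0.211, 0.096 and 0.0686 in resistant cells, against 1.95, 0.0992 and 0.433 in parental cells, and parental 2 lay within the resistant range.

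EPCAM, the surface glycoprotein used to define epithelial cells, was above the array median on 2 arrays only. It stood at 0.382, 0.344 and 0.471 array medians in resistant cells, against 9.53, 1.19 and 0.307 in parental cells. Parental 3 was the lowest of the 6 arrays, so that the groups overlapped. The log2 difference was -1.94 (SE 1.14; adjusted p = 0.414) and -0.61 (adjusted p = 0.585) without parental 1. With a pseudocount of 1 it was -1.15 (adjusted p = 0.344).

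Among the claudins, CLDN7 was lower in resistant cells without overlap. It stood at 1.23, 0.080 and 0.157 array medians in resistant cells, against 4.22, 1.60 and 1.91 in parental cells (log2 difference -3.24, SE 0.999; adjusted p = 0.162). Parental 2 and 3 were both above the 3 resistant arrays, and without parental 1 the difference was -2.82 (adjusted p = 0.229). With 2 of the resistant arrays far below the array median, the difference was -2.17 at a pseudocount of 0.25 and -1.28 at a pseudocount of 1 (adjusted p = 0.110 and 0.0774). Resistant 1 lay near the parental arrays, and without it CLDN7 was called, with a log2 difference of -4.39 (adjusted p = 0.0384). CLDN3 stood at 0.829, 0.640 and 0.755 in resistant cells, against 2.62, 1.57 and 0.205 in parental cells by 203954_x_at. Its groups overlapped, and the log2 difference of -0.36 (adjusted p = 0.865) was 0.38 without parental 1. The second CLDN3 probe set (203953_s_at), not tested, had 2.12 in parental 1 and less than the array median on the other 5 arrays.

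CLDN4 was not tested, since both of its probe sets averaged under the array median. By 201428_at it had 0.407, 0.096 and 0.118 in resistant cells, against 0.378, 0.649 and 0.197 in parental cells, all below the array median. By 1569421_at it had 0.171, 1.43 and 0.324 in resistant cells, against 0.0979, 0.168 and 0.118 in parental cells. All resistant arrays thus lay above all parental arrays in this probe set, opposite to the tested members. Resistant 1 was only just above parental 2, and only resistant 2 was above the array median. Parental 1 was not the highest array in either.

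ELF3 stood at 0.358, 1.35 and 1.16 array medians in resistant cells, against 3.43, 1.12 and 1.60 in parental cells by 210827_s_at. Parental 2 lay below resistant 2 and 3, and the log2 difference was -1.15 (SE 0.629; adjusted p = 0.381), or -0.70 (adjusted p = 0.560) without parental 1. The 2 other probe sets of ELF3 were not tested and overlapped between groups. Promoter sequences from RefSeq (GRCh38.p14) were matched for 6 members, KRT8, KRT10, CLDN3, CLDN4, CLDN7 and ELF3, and the 250 bases before each start were searched on both strands for the E-box CAGGTG, which reads as CACCTG from the other strand. The sequences of CLDN7 and ELF3 are shown because they were the only members with a match, and that of CLDN3 as a claudin without one. They are given 5′ to 3′ on the strand of the gene, with the E-boxes in capitals.
CLDN7 (chr17:7262479-7262728, minus strand): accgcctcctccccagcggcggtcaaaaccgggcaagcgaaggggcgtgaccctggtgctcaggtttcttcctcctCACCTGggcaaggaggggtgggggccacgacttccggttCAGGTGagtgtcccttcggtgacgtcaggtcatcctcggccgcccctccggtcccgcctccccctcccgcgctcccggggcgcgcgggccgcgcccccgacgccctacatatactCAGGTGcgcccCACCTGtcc
ELF3 (chr1:202010337-202010586, plus strand): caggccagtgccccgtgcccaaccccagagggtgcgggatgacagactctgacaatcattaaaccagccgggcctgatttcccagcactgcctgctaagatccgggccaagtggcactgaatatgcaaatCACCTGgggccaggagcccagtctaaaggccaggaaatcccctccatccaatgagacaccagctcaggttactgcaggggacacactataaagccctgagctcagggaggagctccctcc
CLDN3 (chr7:73770271-73770520, minus strand): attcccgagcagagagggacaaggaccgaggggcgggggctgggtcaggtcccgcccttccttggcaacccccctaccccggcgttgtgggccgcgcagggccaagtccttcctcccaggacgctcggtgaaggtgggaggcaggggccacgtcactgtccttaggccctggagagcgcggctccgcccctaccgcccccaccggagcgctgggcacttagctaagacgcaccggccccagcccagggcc

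The CLDN7 sequence held 4 E-boxes, whose first bases lay 174, 135, 20 and 9 bases before the start, and that of ELF3 held 1 at 120 bases. A further start of CLDN7 farther upstream had none in its 250 bases, and neither did KRT8, KRT10 and CLDN4. At least 1 such E-box was present in 17.5% of the 35116 promoters of the table and 4 or more in 0.122%. A match is a run of letters and was not tested for binding of a factor.

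**Figure D2:**
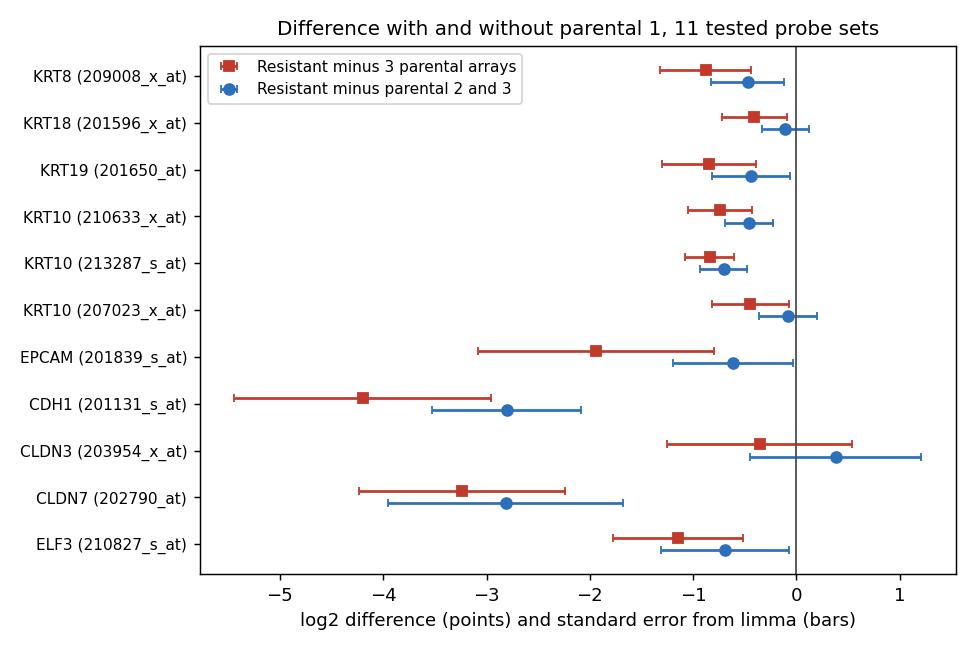
Resistant minus parental level on the log2 scale (points) and its standard error from limma (bars) for the 11 tested probe sets, against the 3 parental arrays (squares) and against parental 2 and 3 alone (circles). Without parental 1 the points lie farther to the right in all 11, and that of CLDN3 lies above 0.

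The place of parental 1 was described over the members, with no test, since it is 1 array. The probe sets of EPCAM, CDH1, CLDN3 and CLDN7 passed the level filter only through parental 1 and so had to stand high there. Their ratios to the higher of parental 2 and 3 (8.0 for EPCAM, 10.9 for CDH1, 1.66 for CLDN3 and 2.20 for CLDN7) are therefore values only. With them, parental 1 was above both other parental arrays for 11 of the 11 tested probe sets (43.9% over all tested probe sets), at 2 or more times the higher of them for 6 (6.42%), at 3 or more times for 2 (2.28%), and the highest of all 6 arrays for 11 (24.5%). Among the 7 that pass the filter without parental 1, those of KRT8, KRT18, KRT19, KRT10 and ELF3, it was above both for 7, beside 42.2% of the 26597 probe sets that pass in this way. It was at 2 or more times the higher for 3 of the 7, those of KRT8, KRT19 and ELF3, beside 5.5%. The log2 excess of parental 1 over the mean of the other parental arrays had a median of 1.09 in the 7 and of 0.03 in all that pass in this way. Of the 7 member probe sets that were not tested, 2 were highest in parental 1.

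**Figure D3:**
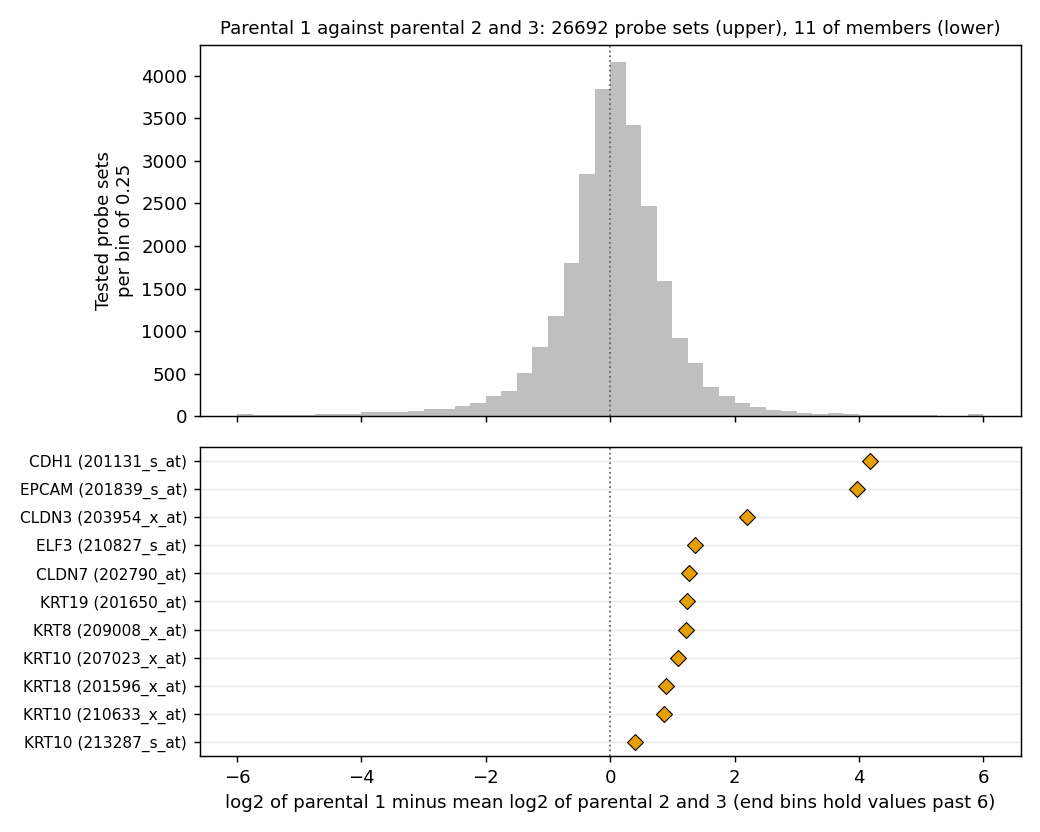
Upper, histogram of the log2 level of parental 1 minus the mean log2 level of parental 2 and 3 over the 26692 tested probe sets. Lower, the same measure for the 11 tested probe sets of the set (diamonds). All 11 lie above 0, and those of CDH1, EPCAM, CLDN3 and CLDN7 passed the level filter only through parental 1.

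Against parental 2 and 3 alone, with the same 26692 probe sets, 0 of the 11 were called, beside 3.84% of all probe sets, 1.6% lower and 2.24% higher, and 2 had an unadjusted p under 0.05. The difference was below 0 for 10 of the 11 (48.1% over all), with a median of -0.47. All resistant arrays lay below parental 2 and 3 for 4 probe sets, those of CDH1, CLDN7 and 2 of KRT10, beside 19.3% over all. The same 4 lay below all 3 parental arrays, beside 12.3% over all. The 11 include EPCAM, CDH1, CLDN3 and CLDN7, which passed the level filter only through parental 1. The counts of this paragraph thus do not bear on the members as a whole.

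Other genes of epithelial structure, from lists named for their roles, held few calls. Of 20 other keratins 1 was tested, KRT7, a simple epithelial type II keratin, which had 0.927, 2.47 and 0.578 array medians in resistant cells, against 2.36, 3.20 and 3.18 in parental cells (adjusted p = 0.227). Among 11 tested genes of the tight junction beside the members, 1 was called higher and 0 lower, with a median log2 difference of -0.06, beside 0.02 over the 11810 tested genes, of which 153 were called higher and 174 lower. The called gene was CLDN11, the claudin of myelin and of Sertoli cells, at 2.74, 2.91 and 3.34 in resistant cells, against 0.483, 0.298 and 0.441 in parental cells (log2 difference 2.91, SE 0.259; adjusted p = 0.00463). It rose without overlap and did so against parental 2 and 3 alone (adjusted p = 0.00611). All parental arrays were below the array median, and with a pseudocount of 1 the difference was 1.51 (adjusted p = 0.00295). The scaffold TJP1, which links claudins to actin, was at 36.2, 35.3 and 48.8 in resistant cells, against 42.6, 41.4 and 40.1 in parental cells, and parental 1 was close to the other parental arrays. PARD3, a polarity scaffold, and the claudins CLDN12 and CLDN15 had log2 differences of 0.11, 0.31 and -0.06 and were not called.

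Of the adherens junction genes, 0 of 7 tested were called (median -0.22). JUP, the plakoglobin of adherens junctions and desmosomes, had 22.96, 11.5 and 9.84 in resistant cells, against 41.7, 21.1 and 20.8 in parental cells, and was highest in parental 1. The E-cadherin partners CTNNA1 and CTNNB1 did not share one order. CTNNA1 had 57.7, 48.9 and 59.2 in resistant cells, against 65.5, 27.5 and 23.9 in parental cells, and was highest in parental 1. CTNNB1 had 58.2, 50.9 and 46.5 in resistant cells, against 35.2, 77.3 and 63.3 in parental cells, and was lowest in parental 1. Of the desmosome genes and cytolinkers 0 of 7 were called (median 0.17). DSP, which anchors keratin filaments to desmosomes, had 0.0813, 0.248 and 0.784 in resistant cells, against 6.57, 1.38 and 0.559 in parental cells (log2 difference -2.78, adjusted p = 0.249), and was highest in parental 1. DSP passed the level filter only through parental 1 and so had to stand high there, so that these are values only. VCL (vinculin), which ties junctions to actin, had 51.5, 41.6 and 50.2 in resistant cells, against 98.1, 81.3 and 73.0 in parental cells, with no overlap (adjusted p = 0.128), and AFDN (afadin) had a log2 difference of -0.18. The plakophilins PKP4 and PKP3 had log2 differences of 0.35 and -0.04. DSG2 and DSC2, the desmosomal cadherins, had log2 differences of 0.49 and 0.33.

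Among epithelial surface and trafficking genes 0 of 13 tested were called, with a median of -0.43, and of 0.04 without parental 1. CD24, a surface sialoglycoprotein, had 15.2, 13.99 and 5.32 in resistant cells, against 80.3, 10.6 and 3.27 in parental cells, and parental 3 was the lowest array. MUC1, an epithelial mucin, had 14.2, 10.8 and 10.6 in resistant cells, against 7.97, 5.68 and 6.11 in parental cells, with no overlap (adjusted p = 0.139). ERBB3 and PROM2 had log2 differences of 0.31 and 0.35. Of epithelial transcription and splicing factors 0 of 4 tested were called (median -0.73). GRHL1, a grainyhead factor of epithelia, had 0.894, 1.01 and 1.25 in resistant cells, against 1.46, 5.20 and 5.30 in parental cells. Here parental 1 lay near the resistant arrays, opposite to its place for the members, and GRHL1 was called lower against parental 2 and 3 alone (log2 difference -2.33, adjusted p = 0.00992), but not against all 3 (-1.72, adjusted p = 0.161). SPDEF, FOXA1 and OVOL1 had log2 differences of -1.01, 0.56 and -0.46.

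Among the repressors of CDH1, SNAI2 and TWIST1 were called higher in resistant cells. Of 10 tested repressors and mesenchymal genes, 2 were called higher and 0 lower, and the median log2 difference was 0.78. SNAI2 (Slug), a zinc finger repressor that binds E-boxes, stood at 12.3, 11.3 and 10.8 array medians in resistant cells, against 0.776, 1.00 and 1.02 in parental cells. It rose (log2 difference 3.63, SE 0.216; adjusted p = 0.0016; 2.69 with a pseudocount of 1), the groups lay far apart, and parental 1 was close to the other parental arrays. TWIST1, a helix-loop-helix factor of mesenchymal cells, stood at 9.02, 9.46 and 15.4 in resistant cells, against 0.825, 0.542 and 0.236 in parental cells. It rose (log2 difference 4.53, SE 0.492; adjusted p = 0.009), but all parental arrays were below the array median, and the difference was 2.98 with a pseudocount of 1. The call was lost under 4 of 18 alternatives, with adjusted p = 0.0503 without resistant 2, 0.0538 with no level filter, 0.0512 with the replicate block and 0.086 by the test named in the methods. Each was called against parental 2 and 3 alone (adjusted p = 0.00261 for SNAI2 and 0.0069 for TWIST1).

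The other repressors were not called. ZEB1 had 18.9, 16.6 and 26.3 in resistant cells, against 13, 18 and 14.9 in parental cells, and ZEB2, SNAI1 and SNAI3 had log2 differences of 0.11, 0.30 and -0.50. The E-proteins TCF3 and TCF4 were higher in all resistant arrays than in any parental array, with log2 differences of 0.65 and 0.91 (adjusted p = 0.166 and 0.104). VIM, the vimentin of mesenchymal and blood cells, stood at 614, 497 and 541 in resistant cells, against 438, 43.1 and 70.6 in parental cells. Parental 1 thus lay next to the resistant arrays, and VIM was called higher against parental 2 and 3 alone (log2 difference 3.32, adjusted p = 0.00632), but not against all 3 (2.32, adjusted p = 0.20). Whether the levels of SNAI2 or TWIST1 bear on those of CDH1, CLDN7 or the other members was not tested.

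**Figure D4:**
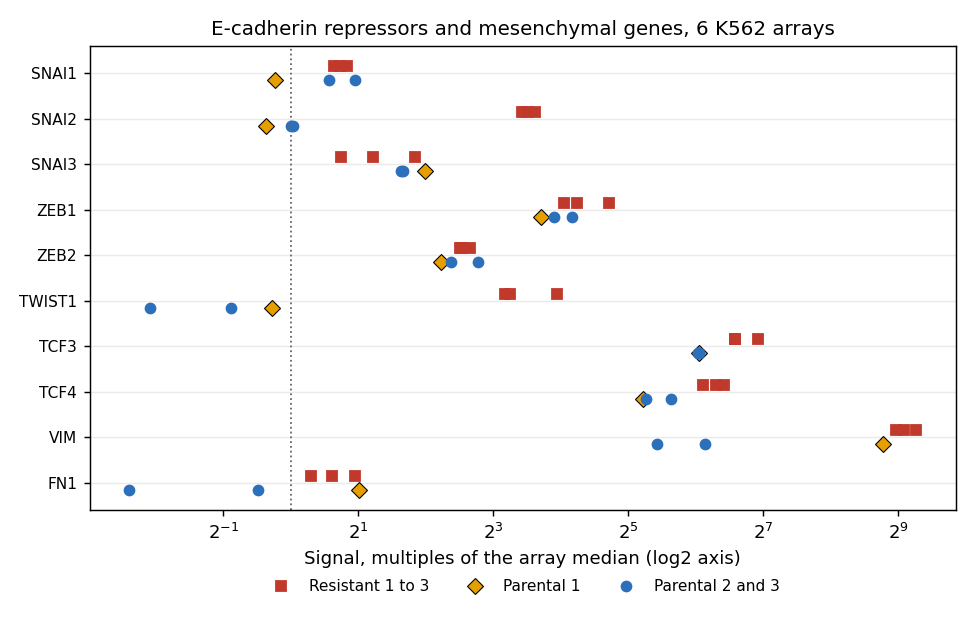
Signal of the 10 tested repressors of E-cadherin and mesenchymal genes in the resistant arrays (squares), parental 1 (diamond) and parental 2 and 3 (circles), as multiples of the array median (log2 axis) with the median as a dotted line. SNAI2 and TWIST1 lie higher in all 3 resistant arrays than in any parental array, and VIM in parental 1 lies near the resistant arrays.

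Some marker lists of other cells had their highest sum in parental 1, and the lists are given beside the members for that reason. These were the lists of luminal breast epithelium, of mature leukocytes, and of osteoblasts and fibroblasts, that of leukocytes only through PTPRC. The sums of intestinal and basal epithelium were not highest there. The 10 markers of luminal breast epithelium summed to 9.57 to 10.95 array medians in resistant cells, against 135 in parental 1 and 11.9 to 24.7 in parental 2 and 3. MLPH (melanophilin) had 1.22, 1.23 and 1.97 in resistant cells, against 44.7, 2.01 and 1.21 in parental cells. TFF1, an oestrogen-induced secreted peptide, had 0.951, 0.192 and 0.490 in resistant cells, against 44.4, 9.76 and 2.26 in parental cells. It was below the array median in every resistant array and above it in every parental array (log2 difference -4.47, adjusted p = 0.104). GATA3, a transcription factor of luminal and T cells, had 2.40, 2.09 and 3.53 in resistant cells, against 30.3, 5.0 and 2.31 in parental cells. AGR2, a protein disulfide isomerase of secretory epithelia, had 0.789, 0.064 and 0.108 in resistant cells, against 7.20, 1.31 and 0.236 in parental cells. AGR2 passed the level filter only through parental 1 and so had to stand high there. Parental 1 was thus the highest array for MLPH, TFF1, GATA3 and AGR2. ESR1, the oestrogen receptor that defines these cells, had 1.35, 1.75 and 0.657 in resistant cells, against 1.05, 0.611 and 1.21 in parental cells, and was not highest there. In all, 6 of the 10 markers, tested or not, were highest in parental 1, where 24.5% of all tested probe sets were. The 6 include PGR and GREB1, which were not tested, and AGR2, so that the share over tested probe sets is not a like background. SPDEF had 1.98 in parental 1, against 2.405 and 2.29 in parental 2 and 3. TFAP2A, which was not tested, had 0.196, against 0.763 and 0.976. FOXA1 had 2.175 in parental 1, above parental 2 and 3 but below resistant 1 at 2.195. Of the 7 markers tested 0 were called.

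**Figure D5:**
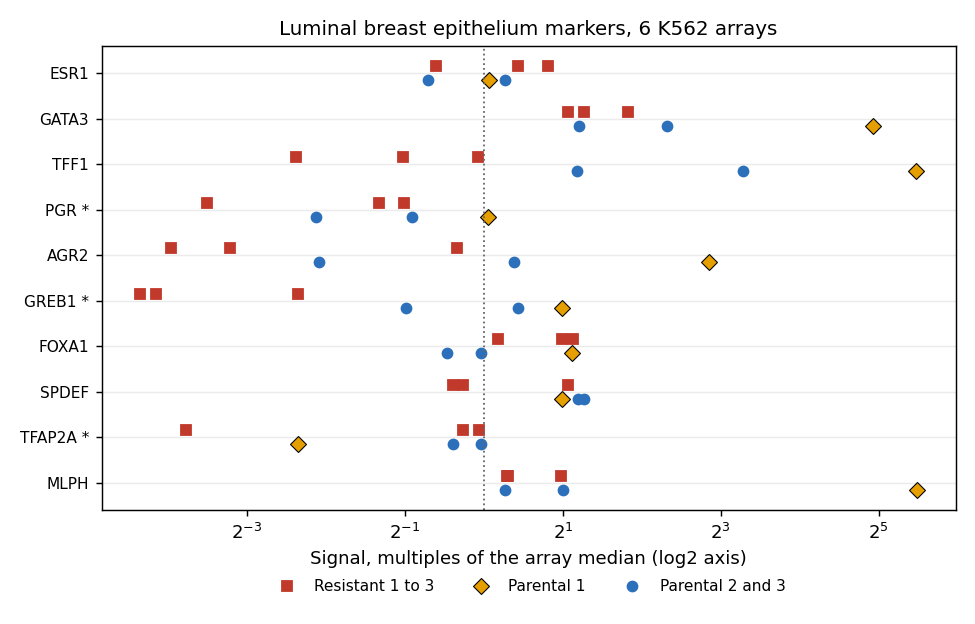
Signal of the 10 luminal breast epithelium markers in the resistant arrays (squares), parental 1 (diamond) and parental 2 and 3 (circles), as multiples of the array median (log2 axis), with an asterisk for untested genes. GATA3, TFF1, AGR2 and MLPH lie far higher in parental 1 than in parental 3, and ESR1 does not.

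Markers of mature leukocytes summed to 22.9 to 31.2 array medians in resistant cells, against 154.5 in parental 1 and 96.4 to 98.6 in parental 2 and 3. PTPRC (CD45), the phosphatase that marks leukocytes, had 6.504, 7.62 and 9.60 in resistant cells, against 60.2, 0.374 and 0.402 in parental cells, and was called higher against parental 2 and 3 alone (adjusted p = 0.00261). LYZ (lysozyme) and CD3D, a chain of the T cell receptor complex, did not share that order. LYZ had 21.4, 19.5 and 10.1 in resistant cells, against 42.1, 60.95 and 60.5 in parental cells, and CD3D had 0.919, 2.14 and 0.0784, against 50.3, 31.9 and 35.2. Without PTPRC the sum of this list in parental 1 was not above those in parental 2 and 3. Markers of osteoblasts and fibroblasts summed to 16.4 to 27.6 in resistant cells, against 56.9 in parental 1 and 37.5 to 43.7 in parental 2 and 3. Of these SPARC had a log2 difference of -1.82, COL1A1 of -0.39 and RUNX2 of 0.46, none of them called. Those of intestinal epithelium summed to 6.91 to 8.03 in resistant cells, against 6.59 in parental 1 and 8.04 to 8.65 in parental 2 and 3, and thus were not higher in parental 1; VIL1, CEACAM6 and CEACAM5 were not called. Those of basal epithelium summed to 2.03 to 2.78 in resistant cells, against 3.37 in parental 1 and 2.56 to 4.66 in parental 2 and 3. In this list LAMB3, a chain of laminin, had 0.447, 0.696 and 0.608 in resistant cells, against 1.73, 1.71 and 1.55 in parental cells, and was called lower (log2 difference -1.54, adjusted p = 0.031; -0.75 with a pseudocount of 1), a call lost under 11 of its 17 alternatives, among them each of parental 2, parental 3 and resistant 1, 2 or 3 left out. No marker was at 0 on all arrays, and the part of these cell types in the levels of the members was not tested.

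The genes most like the members in their pattern were sought among 4316 genes outside the lists, by Pearson's r over the 6 arrays with the mean standardised profile of the 9 tested members. The 5 nearest were ACSS2, an acetyl-CoA synthetase, KISS1R, the kisspeptin receptor, CLU (clusterin), PROS1 (protein S) and PREX1, an exchange factor of Rac, with r = 0.992 to 0.996. These values rest on 6 points, 1 of which, parental 1, was far from the others. ACSS2 stood at 8.90, 7.20 and 6.89 in resistant cells, against 31.6, 11.9 and 10.1 in parental cells, and CLU at 3.63, 2.76 and 1.96, against 54.2, 7.35 and 4.97. In the profile of the members parental 1 stood highest, at 1.61, and the resistant arrays lowest, at -0.39 to -0.65. Of the 9 members in it, 4 (EPCAM, CDH1, CLDN3 and CLDN7) passed the level filter only through parental 1. The order in the 5 genes thus follows from how they were chosen and is not a further result. In each the resistant arrays lay below the parental arrays, and parental 1 was the highest at 2.01 to 7.38 times the higher of parental 2 and 3. None of the 5 was called.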

How the data were processed

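RNA of 6 samples was measured on Affymetrix human arrays. The authors deposited MAS5 intensities (linear; version not given in the sources used here), with 1 value per probe set and array. The array medians differ, so the per-array and per-gene scaling of the study's methods had not been applied to them. Groups and replicate numbers came from the labels.

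Intensities were divided by the median of their array, set to at least 0.01 of it, and put on the log2 scale. Of 54675 probe sets, 62 controls and those with a mean under 1 array median were left out, and 26692 were tested with limma 3.58.1 in R 4.3.3 (two-sided, Benjamini-Hochberg over all of them). Calls needed a 2-fold difference or more at adjusted p under 0.05. The fit was tested on simulated data. By annotation 41097 probe sets name 1 gene, 1801 several and 11777 none, and 41043 of the first were matched to GRCh38.p14 by gene ID. A gene outside the set was read by its tested probe set of highest mean log2 level that names 1 gene. Promoters came from RefSeq. The members, lists, tests and alternatives were chosen with earlier results of these data known. Named genes were all members; called genes and up to 4 tested genes of highest mean level in a pathway list, or up to 3 in a marker list; and the 5 genes outside the lists whose profile was nearest (SD of at least 0.5 over the arrays). JUP, DSP, ZEB2, SNAI1, SNAI3, AGR2, ESR1 and TFAP2A fall outside this rule and were chosen after their values were seen.

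Alternatives covered scaling between arrays, the level filter, pseudocounts, the variance model, the methods' t-test, a block for replicate number, probe sets that can match several transcripts, and each array left out.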

Additional observations from a re-analysis of the deposited data

How the results depend on the processing

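Alternatives in the level filter, variance model, t-test, replicate block or probe-set endings returned the main log2 difference and could not change its sign. EPCAM, CDH1, CLDN3 and CLDN7 fail the level filter without parental 1 and had a value there only with the probe sets of the full filter. The count of lower levels is thus partly fixed beforehand. Over 182 alternative values of the 11 tested probe sets, 180 kept a lower level in resistant cells. Of the 182, 181 stayed on the same side of the threshold. The exceptions were CLDN3, whose log2 difference ranged from -1.46 to 0.011 with 1 array left out, the highest without parental 2, and was 0.38 without parental 1 when the probe sets of the full filter were kept, an alternative chosen after seeing the data, and CLDN7, called without resistant 1. KRT10 (213287_s_at) reached an adjusted p of 0.0375 with an intensity trend and robust prior, at a fold under 2. Leaving out each array in turn therefore gave 0 to 1 member probe sets called lower. The count of member probe sets with parental 1 at 2 or more times the other parental arrays stayed within 1.5 times of 6 under each scaling.

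Counts over all probe sets moved more. Against 319 higher and 303 lower, there were 210 higher with the values as deposited (39.5% of calls higher and a log2 median of -0.17 over all tested probe sets, against 51.3% and 0.03 after scaling), 97 higher and 77 lower with no level filter, 455 lower with a pseudocount of 0.25, 599 higher and 592 lower with a pseudocount of 1, 563 and 570 with an intensity trend and robust prior, 82 and 44 with the methods' t-test, and 204 and 190 without probe sets ending in _x_at or _s_at, where fewer were tested. The methods' t-test gave 935 higher and 987 lower at an unadjusted p under 0.05 and a fold of 2, none of them a member probe set. With the replicate block there were 133 higher and 136 lower and no member was called. Same-numbered arrays did not deviate together (correlations of deviations from the group means of -0.00671, -0.0253 and -0.00641), so the samples share only a number. Leaving out each array gave 103 higher (without resistant 2) to 633 higher (without parental 1), and 79 lower (without parental 2) to 447 lower, and 599 higher without parental 1 when the probe sets of the full filter were kept. SNAI2 kept its call under 18 of 18 alternatives and CLDN11 under 17 of 17. TWIST1 lost it under 4 of 18. HBE1 lost it under 1 of 18, the methods' t-test. The causes were not tested. Values below the array median are the least certain.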
